A study of Mus musculus with 24 samples.

Results

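IFN epsilon at 1000 IU/ml was compared with IFN beta at the same dose in ID8 cells, a mouse ovarian cancer line grown from ovarian surface epithelium. The comparison took the 3 samples titled as 1000 IU/ml IFN epsilon and the 3 titled as 1000 IU/ml IFN beta, which is 6 of 21 samples in the series, and paired them by replicate number. Cells of both groups received recombinant mouse interferon for 3 h, and untreated cells received the vehicle (PBS). Replicates were made on separate dates, so replicate numbers are called dates 1 to 3 here, and the wells of a treatment were combined into 1 sample per date. The 6 samples therefore hold 1 sample per interferon and date, all from a single cell line at a single time. RNA was hybridised to single-colour arrays, and a level is log2 of the processed intensity minus the array's 75th percentile, so that 0 marks the 75th percentile of an array and 1 unit is a 2-fold step.

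Both proteins are type I interferons and bind the same receptor, made of the chains Ifnar1 and Ifnar2. The receptor's kinases activate a factor complex that includes Irf9 and binds interferon-stimulated response elements (ISREs) in the promoters of antiviral genes. IFN epsilon is produced constitutively in female reproductive tract epithelium, without infection, whereas IFN beta is released by many cells on virus infection. The comparison asks whether the same nominal activity of each protein gave the same response in tumour cells of this origin.

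The epithelial keratins Krt8 and Krt18 had levels of 5.83 to 6.86 with IFN epsilon and 5.87 to 6.97 with IFN beta, and the ovarian surface marker Wt1 had 6.15 to 6.46 with IFN epsilon and 6.20 to 6.40 with IFN beta. Epcam, another epithelial marker, was low, at -4.20 with IFN epsilon and -4.61 with IFN beta, and Muc16, Pax8 and Cldn4 did not pass the filter on dim probes. Of 23 leukocyte markers 8 passed it, among them Siglech at 3.596 with IFN epsilon and 3.49 with IFN beta, and the pan-leukocyte marker Ptprc did not. On the 6 arrays 50.03% to 57.0% of probes were well above background, with IFN epsilon on date 3 the highest and IFN beta on date 3 the lowest, and 0 spots were saturated. The 75th percentile of intensity was 727 and 728 on the arrays of date 3, against 1032 to 1201 on those of dates 1 and 2. IFN epsilon and IFN beta shared an array slide on date 1 only. The median 95% interval of a difference reached 0.24 to either side over all genes.

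No single gene separated the interferons at the threshold used, a Benjamini-Hochberg adjusted p under 0.05 in limma with the date as a block. Of 14297 genes tested, 0 were higher and 0 lower with IFN epsilon than with IFN beta (0% each). At an unadjusted p under 0.05 there were 854 genes (5.97%), 436 higher (3.05%) and 418 lower (2.92%), and the lowest adjusted p was 0.0524. Both interferons changed many genes against the same untreated samples. With IFN epsilon 625 genes rose (4.37%) and 569 fell (3.98%), and with IFN beta 393 rose (2.75%) and 73 fell (0.511%). These counts share their controls, and the direct comparison above is the test of the difference.

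Antiviral effectors rose strongly with both proteins. Isg15, a ubiquitin-like modifier of proteins, had levels of 7.07, 7.20 and 7.58 with IFN epsilon on dates 1, 2 and 3, 6.80, 7.003 and 7.74 with IFN beta, and 3.36, 2.59 and 4.37 in untreated cells. The interferon groups overlapped, and both lay far above untreated cells. The difference between IFN epsilon and IFN beta was 0.10 ± 0.24 (log2 ± SE, n = 3 each, limma adjusted p = 0.98). Ifit1, which binds foreign RNA, had levels of 4.78, 5.49 and 5.63 with IFN epsilon, 3.85, 5.32 and 5.93 with IFN beta, and -2.38, -2.50 and -0.49 in untreated cells. Its date 3 samples were the highest of their groups in all 3 conditions, and the groups overlapped (difference 0.26 ± 0.42, adjusted p = 0.97). Rsad2, which makes a chain-terminating nucleotide, had levels of 2.56, 5.11 and 4.71 with IFN epsilon and 0.82, 4.31 and 5.66 with IFN beta. Here both interferons were lowest on date 1, and IFN epsilon was the higher on dates 1 and 2 and the lower on date 3. Cmpk2, a mitochondrial nucleotide kinase, had 3.81, 5.08 and 4.39 with IFN epsilon and 2.14, 3.87 and 5.33 with IFN beta (0.65 ± 0.51, adjusted p = 0.91). Oas2, an oligoadenylate synthetase that senses double-stranded RNA, had 3.66, 3.46 and 2.48 with IFN epsilon, 2.84, 2.73 and 3.22 with IFN beta, and -1.59, -2.75 and -2.83 in untreated cells. For Oas2, in contrast to the other genes here, IFN epsilon had the wider spread, with date 3 its lowest sample. Ifit3 and Ifit3b had differences of 0.63 ± 0.52 and 0.58 ± 0.51, and their sequences are near-identical.

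**Figure D1:**
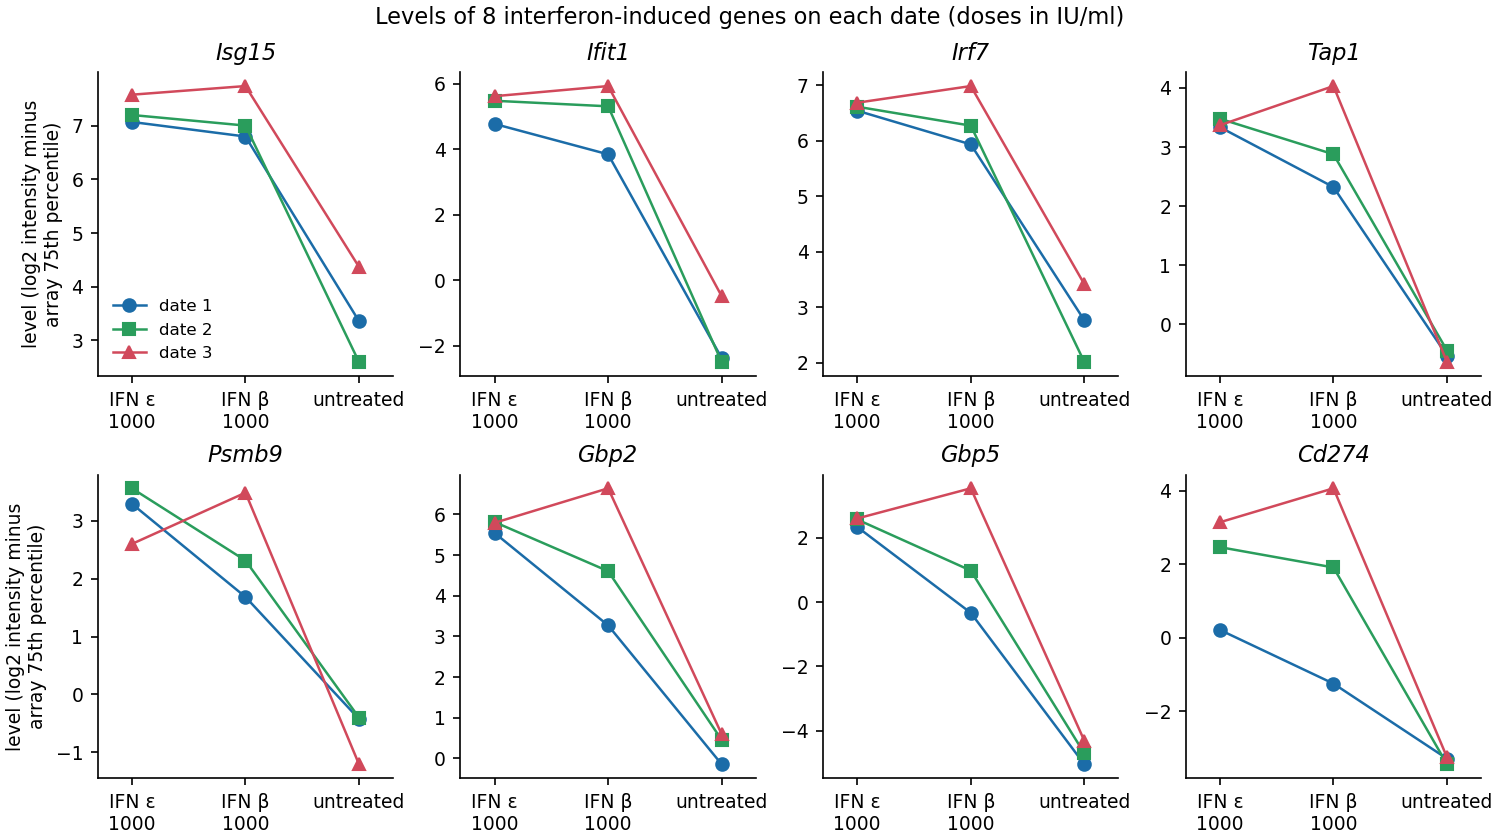
Levels of 8 interferon-induced genes (log2 intensity minus the array's 75th percentile) with IFN epsilon at 1000 IU/ml, IFN beta at 1000 IU/ml and in untreated cells, with 1 line per date. On dates 1 and 2 the IFN epsilon point lies above the IFN beta point in each panel, and on date 3 below it, as for Gbp2 with 5.79 against 6.64.

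Of the 58 antiviral effectors listed, 53 were tested. Of these, 51 rose with IFN epsilon and 48 with IFN beta over untreated cells, as did 4.37% and 2.75% of all genes. The list's median rise was 3.29 with IFN epsilon and 2.98 with IFN beta. Between the interferons the list's median difference was 0.22, against -0.024 over all genes tested, and 0 members passed the test. The differences did not run the same way on each date. IFN epsilon was higher in 52 of 53 members on date 1, in 53 on date 2 and in 1 on date 3, with median differences of 0.67, 0.54 and -0.52. In 51 of 53 members (96.2%) IFN epsilon was higher on dates 1 and 2 and lower on date 3, an order that 14.5% of all genes showed. Ifit1bl1, an Ifit relative, had the highest difference of the list: its levels were 2.50, 2.70 and 2.49 with IFN epsilon and -1.78, 0.59 and 3.89 with IFN beta. The IFN epsilon samples lay close together and inside the range of the IFN beta samples, and untreated cells had it well above background in 0 of 3 samples. The difference of 1.66 ± 0.81 had an adjusted p of 0.83. Eif2ak2, the kinase that stops translation on double-stranded RNA, had the lowest, -0.071 ± 0.23, which was 0.0064 after normexp and quantile normalization.

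Promoters of 4 induced genes are shown because ISREs are known sites of the type I interferon response. They are RefSeq sequences of GRCm38.p6, from 250 bases before to 50 after the gene's start, read 5′ to 3′ along the gene, with each ISRE match in capitals. A match is GAAA, any 2 bases and GAAA again, or on the other strand TTTC, any 2 bases and TTTC, and overlapping matches were counted. Isg15 lies at chr4:156200769-156201068 on the minus strand, Ifit1 at chr19:34640639-34640938, Gbp2 at chr3:142620413-142620712 and Gbp5 at chr3:142496684-142496983, these on the plus strand.
Isg15: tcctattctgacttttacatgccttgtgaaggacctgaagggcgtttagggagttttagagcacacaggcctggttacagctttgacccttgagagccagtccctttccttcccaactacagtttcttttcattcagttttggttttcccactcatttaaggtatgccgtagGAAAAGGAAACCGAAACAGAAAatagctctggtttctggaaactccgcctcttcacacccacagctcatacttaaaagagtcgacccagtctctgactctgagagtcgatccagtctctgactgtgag
Ifit1: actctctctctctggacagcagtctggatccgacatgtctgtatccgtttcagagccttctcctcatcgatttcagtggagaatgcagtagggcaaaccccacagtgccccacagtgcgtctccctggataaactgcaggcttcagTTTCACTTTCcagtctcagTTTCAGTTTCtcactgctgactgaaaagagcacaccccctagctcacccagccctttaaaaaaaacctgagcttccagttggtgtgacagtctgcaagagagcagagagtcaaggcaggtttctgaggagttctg
Gbp2: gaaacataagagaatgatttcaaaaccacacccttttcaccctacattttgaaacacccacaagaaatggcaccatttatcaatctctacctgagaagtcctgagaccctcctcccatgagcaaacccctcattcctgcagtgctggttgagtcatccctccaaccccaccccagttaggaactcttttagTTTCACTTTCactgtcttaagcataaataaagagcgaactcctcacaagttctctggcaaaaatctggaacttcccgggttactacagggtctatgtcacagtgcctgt
Gbp5: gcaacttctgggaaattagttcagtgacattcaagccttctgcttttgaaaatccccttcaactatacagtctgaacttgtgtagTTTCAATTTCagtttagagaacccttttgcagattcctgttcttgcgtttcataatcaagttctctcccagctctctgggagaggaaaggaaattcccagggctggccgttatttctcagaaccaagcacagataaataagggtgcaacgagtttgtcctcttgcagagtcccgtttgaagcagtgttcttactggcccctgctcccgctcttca
The Isg15 promoter held 3 matches that overlap in 1 run, Ifit1 2, Gbp2 1 and Gbp5 1. Such ISRE letters were found in 3.44% of all 32851 promoters in the table. Counted per gene, with a match in any of its promoters, they were found in 414 of 11325 tested genes (3.66%). Of 499 genes that rose with the mean of both interferons and had a promoter there, 98 (19.6%) held a match. The median differences of these 98 genes on dates 1, 2 and 3 were 0.62, 0.45 and -0.41, and those of the 401 without a match 0.42, 0.32 and -0.35. The change of direction on date 3 was thus seen with and without the letters, which are a match and not a measured site.

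Receptor and signalling genes had a median difference of 0.015 and 0 members called. The receptor chain Ifnar1 had levels of 1.42, 1.21 and 0.39 with IFN epsilon and 1.27, 1.55 and 0.60 with IFN beta, and Ifnar2 had 2.36, 2.37 and 2.16 with IFN epsilon and 2.31, 2.25 and 2.41 with IFN beta. Neither passed the test against untreated cells with either interferon (limma adjusted p between 0.53 and 0.96). Irf7, a factor that amplifies interferon output, had 6.54, 6.61 and 6.68 with IFN epsilon and 5.93, 6.27 and 6.98 with IFN beta. The IFN epsilon samples sat inside the range of the IFN beta samples, and the difference was 0.22 ± 0.23 (adjusted p = 0.94). Irf9 was almost level, at 3.596, 3.75 and 3.67 with IFN epsilon and 3.49, 3.63 and 3.75 with IFN beta, and its 95% interval ran from -0.27 to 0.37. Batf2, a partner of Irf1 in induced transcription, had the highest difference of the signalling list (0.86 ± 0.76), and the IFN gamma receptor chain Ifngr1 the lowest (-0.17 ± 0.095, or 0.017 after normexp and quantile normalization or in the deposited values). Of 20 members tested, 12 had the order of higher on dates 1 and 2 and lower on date 3, against 14.5% of all genes.

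Inhibitors of the pathway did not separate the groups either. Usp18, which removes Isg15 and restrains the receptor, had 4.88, 5.30 and 5.33 with IFN epsilon and 4.25, 4.98 and 5.63 with IFN beta (0.22 ± 0.29, adjusted p = 0.96). Socs1, which blocks the receptor's kinases, had -0.78, 0.98 and 1.34 with IFN epsilon and -1.35, 0.26 and 2.44 with IFN beta. Socs1 moved more between dates than between interferons, and its difference was 0.062 ± 0.50. Trafd1, a brake on inflammatory signalling, had the highest difference of this list (0.29 ± 0.28) and Socs2 the lowest (-0.25 ± 0.16). Among the sensors of nucleic acids, Zbp1, which detects Z-form nucleic acid and can start necroptosis, was highest of those detected in all 6 samples, at 0.68 ± 0.39. Its levels were 2.58, 2.16 and 2.52 with IFN epsilon and 1.02, 0.91 and 3.28 with IFN beta. The endosomal RNA receptor Tlr3 had -0.60, -1.03 and -0.39 with IFN epsilon and -1.93, -1.08 and 0.078 with IFN beta, and Tlr9, the DNA receptor, was lowest of its list (-0.19 ± 0.26). The DNA sensor Aim2, detected in 3 of 6 samples, had 1.32 ± 0.62. Of 21 sensors tested, 15 had the order seen in the antiviral effectors, against 14.5% of all genes.

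GTPases that interferon induces, known for disrupting pathogen vacuoles, showed wider date gaps than the other lists with members detected in all 6 samples. Gbp2 had levels of 5.55, 5.81 and 5.79 with IFN epsilon, 3.27, 4.60 and 6.64 with IFN beta, and -0.15, 0.45 and 0.59 in untreated cells. The IFN epsilon samples were close together and lay inside the range of the IFN beta samples. The difference, 0.88 ± 0.44 (1.84-fold, adjusted p = 0.83), joins 2.28, 1.21 and -0.85 on the 3 dates. Gbp5 had 2.34, 2.57 and 2.60 with IFN epsilon, -0.34, 0.98 and 3.54 with IFN beta, and -5.05, -4.71 and -4.32 in untreated cells. Iigp1, an immunity-related GTPase, had 2.68, 3.36 and 2.91 with IFN epsilon and -0.86, 1.11 and 4.32 with IFN beta, and was well above background in 0 of 3 untreated samples. It had the highest difference of the list, 1.46 ± 0.76 (adjusted p = 0.84), and Irgm1 the lowest, 0.18 ± 0.23 (or -0.048 after median scaling).

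All 16 GTPases tested, of 20 listed, rose with IFN epsilon over untreated cells, as did 4.37% of all genes. All 16 had IFN epsilon higher on dates 1 and 2 and lower on date 3, against 14.5% of all genes. Their median differences were 1.38, 1.16 and -0.75. In all 16 the 3 IFN epsilon samples lay between the lowest and the highest IFN beta sample, which held for 25.5% of all genes. The median SD over dates was 0.35 with IFN epsilon and 1.18 with IFN beta. Members of the Gbp family resemble each other in sequence, so that single members are uncertain and the 16 are not independent.

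Genes of MHC class I antigen presentation showed the same order with smaller gaps. Tap1, which carries peptides to class I molecules, had levels of 3.34, 3.48 and 3.37 with IFN epsilon, 2.32, 2.88 and 4.03 with IFN beta, and -0.53, -0.44 and -0.64 in untreated cells. Its difference was 0.32 ± 0.30 (adjusted p = 0.93). Psmb9, a subunit of the immunoproteasome, had the highest difference of the list at 0.66 ± 0.39, with levels of 3.30, 3.56 and 2.60 with IFN epsilon and 1.69, 2.32 and 3.49 with IFN beta. Nlrc5, which drives transcription of class I genes, had 1.54, 2.11 and 1.36 with IFN epsilon and -0.035, 0.88 and 2.22 with IFN beta. Another Nlrc5 probe, well above background in all 6 samples, had a difference of 0.047, against 0.64 for the probe used. For all 3 genes the date 3 sample was the highest with IFN beta, and with IFN epsilon it was not. B2m, the light chain, had 6.05, 6.02 and 6.14 with IFN epsilon and 5.89, 6.01 and 6.35 with IFN beta, and its difference of -0.016 ± 0.12 had a 95% interval from -0.27 to 0.24. The heavy chain H2-K1 had 6.39, 6.29 and 5.85 with IFN epsilon and 6.001 and 6.32 on dates 1 and 3 with IFN beta, as the spot of date 2 was marked as an outlier and left out (-0.12 ± 0.19). Another H2-K1 probe, well above background in all 6 samples, had a difference of 0.12. H2 genes are similar in sequence and may share signal. The chaperone Calr was lowest (-0.17 ± 0.093, or 0.083 after normexp and quantile normalization or in the deposited values). Of 26 members tested 20 had the order of the antiviral effectors, against 14.5% of all genes. The list's median differences were 0.60, 0.45 and -0.57.

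Chemokines, death ligands and surface proteins gave further examples. Cxcl10, which draws T cells, had 6.22, 6.48 and 6.79 with IFN epsilon and 5.35, 6.39 and 6.89 with IFN beta (0.29 ± 0.42, adjusted p = 0.97). Cxcl9, a chemokine with the same receptor, had -3.92, -3.49 and -3.84 with IFN epsilon and -7.02, -6.62 and -1.61 with IFN beta. It was well above background in 3 of 3 IFN epsilon samples, in 1 of 3 IFN beta samples (that of date 3) and in 0 of 3 untreated samples. Of these groups only IFN epsilon could pass the filter, so this detection does not show a difference. Tnfsf10 (TRAIL), a death ligand, had -1.14, 0.20 and 0.56 with IFN epsilon and -2.89, -1.11 and 1.40 with IFN beta, and its difference was 0.74 ± 0.62. Cd274, the checkpoint ligand PD-L1, had 0.22, 2.46 and 3.14 with IFN epsilon and -1.24, 1.91 and 4.06 with IFN beta. Cd274 and Tnfsf10 were lowest on date 1 and highest on date 3 with either interferon. Ly6a, a surface protein of the Ly6 family, had the highest difference among surface ligands at 0.95 ± 0.44, and the cell adhesion protein Cd24a the lowest of those detected in all 6 samples at -0.25 ± 0.089 (adjusted p = 0.74). The cytokines Tnfsf13b (0.53 ± 0.27) and Il33 (-0.29 ± 0.079, adjusted p = 0.54) had the highest and lowest differences of the chemokine and cytokine list among genes detected in all 6 samples. Cxcl9, at 1.33 ± 0.86, and Tnf, at -1.02, lay outside them and were dimmer. A dimmer probe of Il33 had a difference of 0.70.

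**Figure D2:**
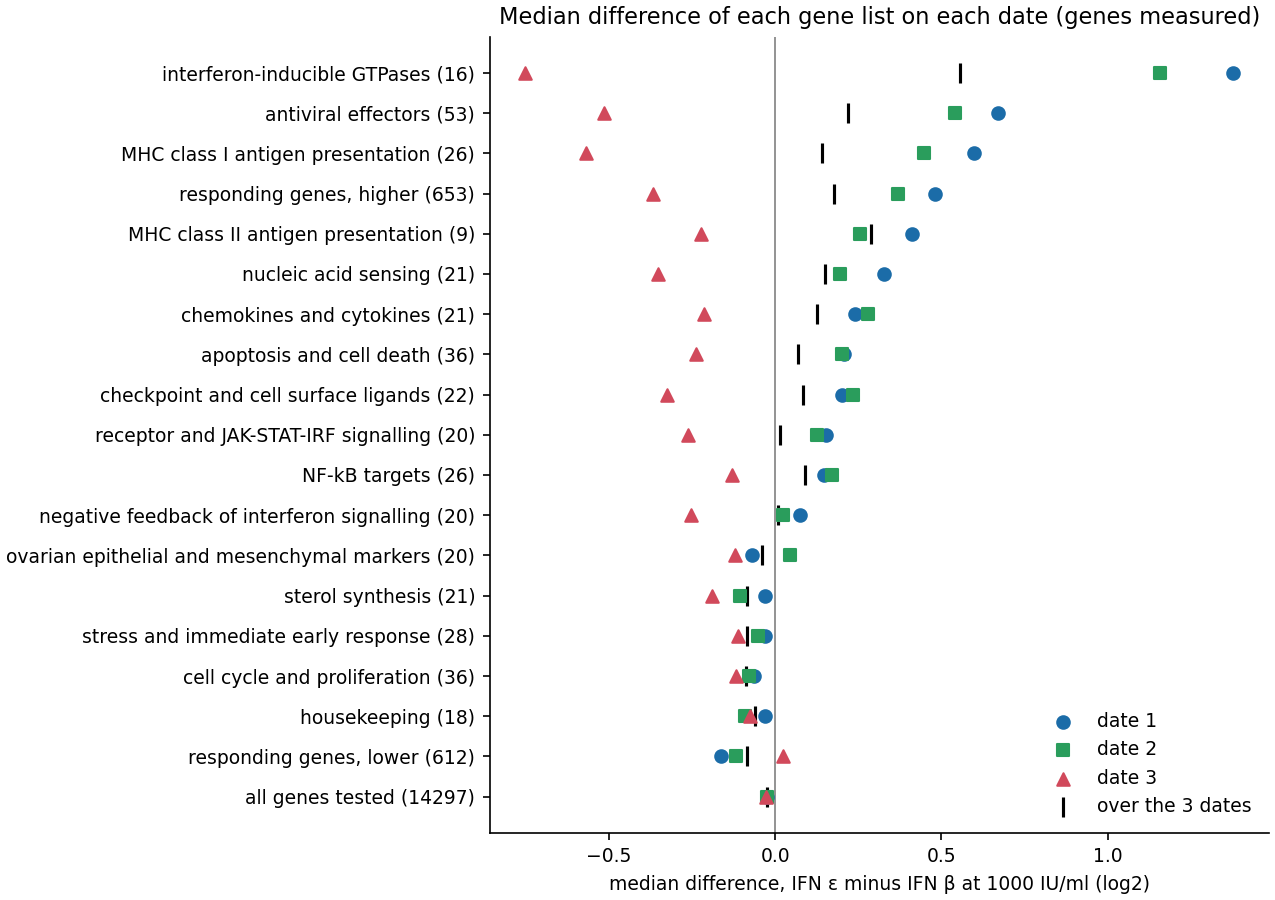
Median difference between IFN epsilon and IFN beta at 1000 IU/ml (log2, IFN epsilon minus IFN beta) for each gene list on each date, with the number of genes tested in brackets and a bar for the median of the fitted differences over the 3 dates. Interferon-inducible GTPases had 1.38, 1.16 and -0.75 on dates 1, 2 and 3, and all genes tested lay near 0 on each date.

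The order seen in these lists ran through the response as a whole. Genes that changed with the mean of both interferons against untreated cells were taken as responding genes. That mean and the difference between the interferons are orthogonal contrasts, which are independent only where both groups vary equally, and both tests use the same residual variance. Of all genes 653 rose (4.57%) and 612 fell (4.28%), and 579 of the 653 passed with IFN epsilon alone and 389 with IFN beta alone. The lower calls depended on the processing: 325 rose and 11 fell without the replicate block, 317 and 33 with median scaling, and 141 and 1 without date 2. Among the 653 the median difference between IFN epsilon and IFN beta was 0.48 on date 1, 0.37 on date 2 and -0.37 on date 3. IFN epsilon was higher on dates 1 and 2 and lower on date 3 in 509 of them (77.9%), against 14.5% of all genes. The opposite order, lower on dates 1 and 2 and higher on date 3, was found in 16.7% of all genes. With 1 sample per interferon and date, this order has no replicate check, and dates cannot be told apart from anything else that differed between them. As RNA came from whole wells, fewer responding cells and less RNA per cell cannot be told apart either.

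**Figure D3:**
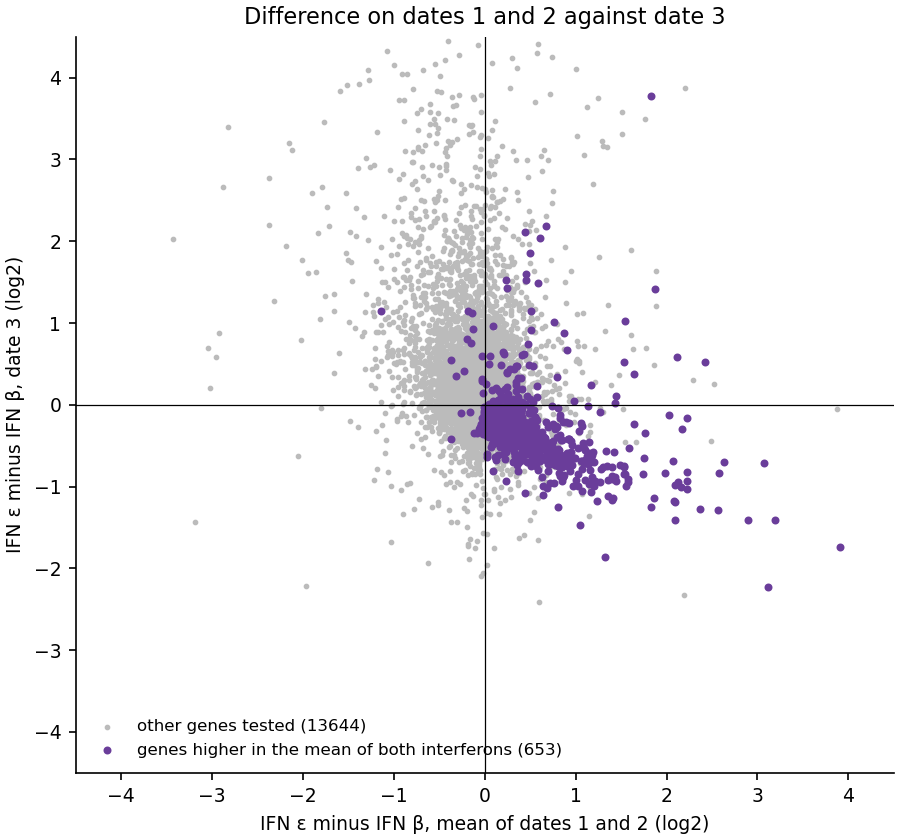
Difference between IFN epsilon and IFN beta at 1000 IU/ml per gene, as the mean of dates 1 and 2 (horizontal, log2) against date 3 (vertical, log2), with 653 genes that rose in the mean of both interferons in purple and 13644 other genes in grey. Most purple points lie at the lower right, and 11 genes, none of them purple, fall outside the axes at 4.5.

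The gaps grew with the size of the response. In 336 genes whose mean rise was under 2-fold, the median differences on dates 1, 2 and 3 were 0.26, 0.21 and -0.26. In 107 genes with a rise of 4- to 16-fold they were 0.92, 0.64 and -0.58, and in 46 genes with a rise over 16-fold 1.36, 0.91 and -0.70. All 46 of these had IFN epsilon higher on dates 1 and 2 and lower on date 3. So did 66.7% of the genes under 2-fold and 14.5% of all genes. Of the 46, 5 were too dim in untreated cells for more than a lower bound on their rise.

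**Figure D4:**
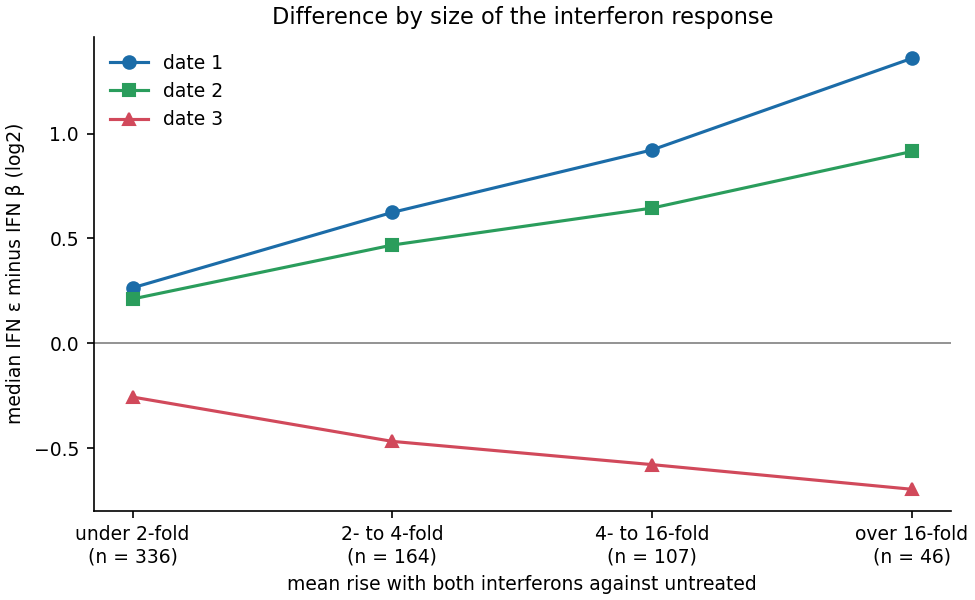
Median difference between IFN epsilon and IFN beta at 1000 IU/ml (log2) on each date, for genes grouped by their mean rise with both interferons, with the number of genes in each group. The lines of dates 1 and 2 climb to 1.36 and 0.91 and that of date 3 falls to -0.70 in the group over 16-fold.

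In the responding genes the 3 IFN epsilon samples lay closer together than the 3 IFN beta samples. With each gene centred on its mean over the 6 samples, the 653 genes had medians of 0.037, 0.18 and 0.091 with IFN epsilon. With IFN beta they had -0.47, -0.21 and 0.43 on dates 1, 2 and 3. The SDs and ranges below thus depend heavily on the IFN beta sample of date 3, and a lasting trait of either interferon was not tested. The median SD over the 3 dates was 0.28 with IFN epsilon and 0.51 with IFN beta in the 653 genes, and 0.23 and 0.24 over all genes tested. The SD was larger with IFN beta in 501 of the 653 (76.7%), against 53% of all genes. In 383 of them (58.7%) all IFN epsilon samples lay between the lowest and highest IFN beta sample, against 25.5% of all genes. The reverse, IFN beta inside IFN epsilon, held for 77 of the 653, against 21.6% of all genes. In 17 of the 653 all IFN epsilon samples lay above all IFN beta samples (1.13% of all genes), and in 0 below (1.86%). IFN epsilon was higher on all 3 dates in 64 of the 653, against 8.65% of all genes. The precision was also lower in responding genes. The median 95% interval reached 0.42 to either side in responding genes, and it stayed within 2-fold either way in 480 of the 653 (73.5%), against 89.4% of all genes.

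Lower doses were set beside the 1000 IU/ml samples on the same dates. Against untreated cells of the same date, the median rise of the 53 antiviral effectors with IFN epsilon at 10, 100 and 1000 IU/ml was 1.08, 2.15 and 3.17 on date 1, 1.71, 3.12 and 3.64 on date 2, and 1.62, 2.78 and 2.94 on date 3. With IFN beta it was 0.26, 1.13 and 2.38 on date 1 and 0.38, 1.31 and 3.00 on date 2. On date 3 the IFN beta values were 3.17, 3.27 and 3.31, almost flat over a 100-fold range of dose. The arrays of 10 and 100 IU/ml IFN beta on date 3 were excluded by the submitters for their high induction, and they entered only an alternative with all 24 arrays, which also called 0 genes. The 1000 IU/ml sample of that date was kept. A test of whether the difference between interferons changed with dose found 0 genes for 1000 against 10 IU/ml (0%) and 0 for 1000 against 100 IU/ml (0%). At an unadjusted limma p under 0.05 there were 403 and 678 genes (2.82% and 4.74%). In these tests IFN beta at 10 and 100 IU/ml had dates 1 and 2 only, whereas the 1000 IU/ml samples included date 3. The contrasts thus mix dose with date 3 and cannot decide whether the difference changed with dose. Without date 2 these tests called 19 and 62 genes, and without date 1 they called 0 of each.

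**Figure D5:**
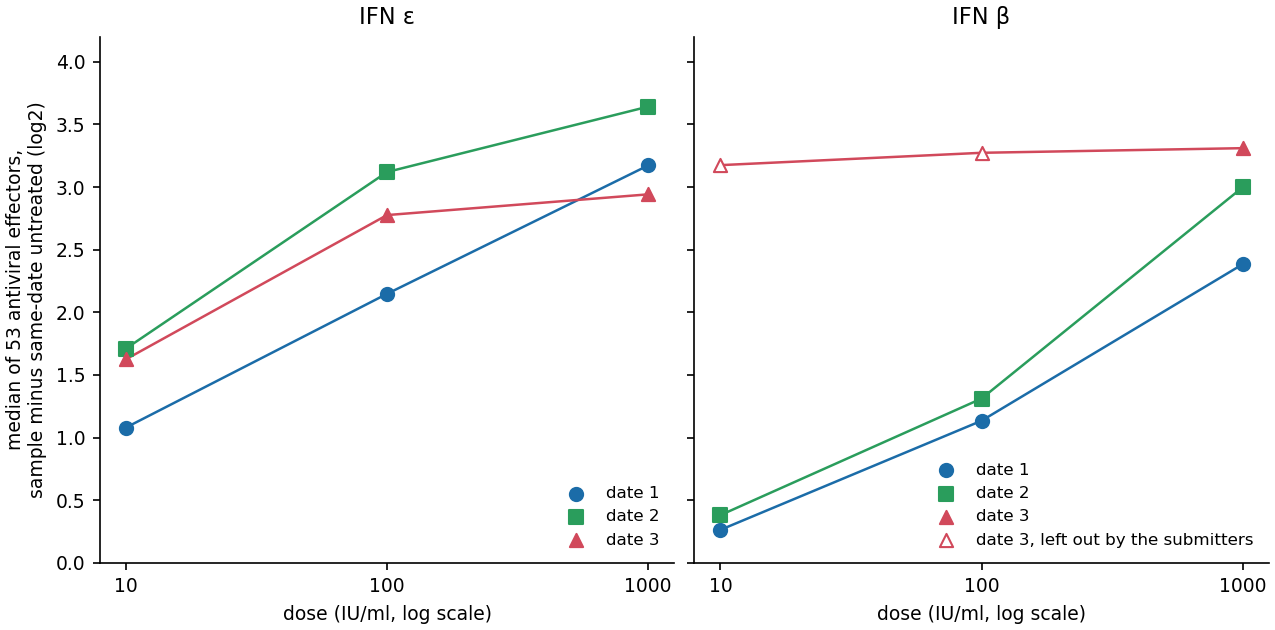
Median of 53 antiviral effectors, each sample minus untreated cells of the same date (log2), by dose (IU/ml, log scale) for IFN epsilon on the left and IFN beta on the right, with 1 line per date and open symbols for the arrays left out by the submitters. The IFN beta line of date 3 runs from 3.17 to 3.31, and all other lines climb with dose.

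Without date 3 the test called 58 of 14068 genes, 50 higher (0.355%) and 8 lower (0.0569%) with IFN epsilon. Of the 14068, 648 were responding genes that rose, and of the 50, 47 were among these. Chosen from them after their values were seen, they included Gbp2 and Gbp4 of the GTPases, Psmb9, Psmb8, Tap2 and Tapbpl of antigen presentation, Casp1, an inflammatory caspase, Mlkl, the executor of necroptosis, and Ly6a. On the 2 remaining dates Gbp2 differed by 1.74 ± 0.27 (n = 2 each, limma adjusted p = 0.0402), Psmb9 by 1.43 ± 0.19 (adjusted p = 0.0259) and Mlkl by 0.71 ± 0.087 (adjusted p = 0.0197). On date 3 the same genes differed by -0.85, -0.89 and -0.63. IFN epsilon was the lower on date 3 in 48 of the 50, Angptl8 and Gm35028 being the exceptions. Over all 3 dates' genes, it was the higher on date 3 in 92 of the 653 responding genes that rose and in 6371 of 14297 genes. Of the 8 lower genes 7 were higher on date 3. Among the 8 only Trem1, an activating receptor of myeloid cells, was a responding gene, with -0.78 ± 0.12. Leaving out only the IFN beta sample of date 3 gave 27 higher (0.189%) and 5 lower genes (0.0351%). These calls rest on which date is kept, since leaving out date 1 gave 0 genes leaving out date 2 gave 5, and leaving out single IFN epsilon samples gave 0 to 6.

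The same direction on all 3 dates was common, with IFN epsilon higher in 8.65% of all genes and lower in 18.2%. The genes named next were chosen by t value, which favours a shared direction, or, for Carf, after their values were seen. Angptl8, a secreted regulator of lipid metabolism, had levels of -1.66, -1.82 and -1.56 with IFN epsilon, -2.11, -2.38 and -2.70 with IFN beta, and -2.42, -2.73 and -2.78 in untreated cells. All IFN epsilon samples lay above all others, and IFN beta lay close to untreated cells. The difference was 0.72 ± 0.10 (1.65-fold, n = 3 each, adjusted p = 0.0961), and against untreated cells Angptl8 rose by 0.97 ± 0.10 with IFN epsilon (adjusted p = 8.6e-05), against 0.25 ± 0.10 with IFN beta (adjusted p = 0.24). It passed the threshold after quantile normalization, after normexp and quantile normalization, and in the deposited values (adjusted p from 0.0304 to 0.0473). Over all settings its adjusted p ran from 0.0286 without the IFN beta sample of date 3 to 1 without the replicate block, and it was higher with IFN epsilon in each. Mitf, a transcription factor of pigment cells and lysosome genes, had -2.54, -3.22 and -2.82 with IFN epsilon and -3.21, -3.62 and -3.29 with IFN beta (0.51 ± 0.10, adjusted p = 0.46). On each date Mitf was higher with IFN epsilon, by 0.67, 0.40 and 0.47. Other Mitf probes, each well above background in 5 of 6 samples, had differences of -0.15 and 0.69. The other genes with the highest moderated t among those detected in all 6 samples were Tex19.1, which acts in germ cells (0.37 ± 0.072), AU041133 (0.46 ± 0.094), Gm5458 (0.47 ± 0.098) and Nkapl, also known from germ cells (0.53 ± 0.11), each with an adjusted p of 0.46. The lowest adjusted p of all belonged to Carf, a transcriptional regulator, at 0.86 ± 0.11 (adjusted p = 0.0524). Carf passed with a stricter filter (limma adjusted p = 0.04465) and with a random slide block (limma adjusted p = 0.04751). It did not pass after quantile normalization, with or without normexp, or in the deposited values. It was well above background in 5 of 6 samples, so it lay outside the rule for named genes and was chosen after its values were seen.

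Lower with IFN epsilon on all 3 dates was Maff, a small basic leucine zipper factor. Its levels were -0.35, -0.19 and 0.35 with IFN epsilon, 0.19, 0.13 and 0.73 with IFN beta, and 0.48, 0.33 and 0.98 in untreated cells. On each date IFN epsilon was the lowest and untreated cells the highest. The difference between the interferons was -0.42 ± 0.086 (adjusted p = 0.46), and against untreated cells Maff fell by 0.66 with IFN epsilon (adjusted p = 0.000476), against -0.25 with IFN beta (adjusted p = 0.16). Ak4, a mitochondrial adenylate kinase, was also lowest with IFN epsilon on each date (-0.31 ± 0.065, adjusted p = 0.46). Edn1, which encodes the vasoconstrictor endothelin, had 2.19, 2.47 and 2.305 with IFN epsilon and 2.44, 2.90 and 2.65 with IFN beta (-0.34 ± 0.080, adjusted p = 0.49). Edn1 had the same direction on each date, although the groups overlapped. Sec24d, a coat protein of secretory vesicles, B230217O12Rik and Spred2, an inhibitor of Ras signalling, completed the lowest t values, with -0.28 ± 0.065, -0.32 ± 0.063 and -0.28 ± 0.066. A dimmer probe of Spred2 had a difference of 0.34, and one of Ak4, well above background in 1 of 6 samples, had 0.56.

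Among the 612 genes that fell in the mean of both interferons, the median difference was -0.083, and the dates had -0.16, -0.12 and 0.024. IFN epsilon was lower on all 3 dates in 200 of them, an order that 18.2% of all genes had. The 95% interval stayed within 2-fold either way in 611 of the 612. At an unadjusted p under 0.05, 76 of them were lower with IFN epsilon and 2 higher, against 2.92% and 3.05% of all genes. Of all genes 569 fell with IFN epsilon and 73 with IFN beta, so membership rests more on IFN epsilon.

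Several other lists had medians close to that of all genes. The median difference was -0.089 for 36 genes of the cell cycle, -0.085 for 21 of sterol synthesis, -0.083 for 28 stress and immediate early genes, -0.040 for 20 ovarian epithelial and mesenchymal markers, and -0.059 for 18 housekeeping genes, with 0 members called in each. NF-kB targets had a median of 0.089, and 16 of 26 (61.5%) were higher on dates 1 and 2 and lower on date 3, against 14.5% of all genes. Of these 26 targets 6 were among the 653 responding genes that rose, as were 4 of the 28 stress genes, against 4.57% of all genes. Ccnd1, the cyclin of early G1, had 3.56, 3.44 and 3.67 with IFN epsilon and 3.69, 3.65 and 3.99 with IFN beta, lower on each date (-0.22 ± 0.069, adjusted p = 0.64). Ptgs2, which makes prostaglandins, was the lowest NF-kB target at -0.34 ± 0.089 (adjusted p = 0.51) and likewise lower on each date, and Nos2, the inducible nitric oxide synthase, the highest at 0.77 ± 0.51. Egr2, an immediate early factor, had -2.80, -2.10 and -3.81 with IFN epsilon and -3.22, -2.43 and -5.04 with IFN beta, and differed by 0.66 ± 0.16 (adjusted p = 0.49). For MHC class II, 9 of 14 listed genes were tested, with a median difference of 0.29 and H2-DMa, a peptide-loading chaperone, as the highest of those detected in all 6 samples (0.68 ± 0.31, adjusted p = 0.83). Ctss and Ciita, dimmer members, had 1.07 and 1.81. Of 13 interferon genes listed 3 were tested, 0 of them well above background in all 6 samples. With either interferon 0 passed as higher against untreated cells. Ifnb1, chosen after its values were seen, was well above background in 2 of 3 IFN epsilon samples and 0 of 3 IFN beta samples. Those 2 samples alone could pass the filter, so this detection does not show a difference.

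Slides and scaling were set beside the date pattern. On slide 1, IFN epsilon of date 3 minus IFN beta of date 2 gave a median of 0.31 over the 653 responding genes and 0.76 over the GTPases. On slide 3, IFN epsilon of date 1 minus the mean of IFN beta of dates 1 and 3 gave 0.074 and 0.15. Median scaling moved the median of all genes by date to -0.057, 0.49 and -1.19, so that values are read against it: the 653 genes then had 0.45, 0.88 and -1.53, and 597 of them had the order of higher on dates 1 and 2 and lower on date 3, against 4164 of all 14297 genes. Under that scaling the overall differences of Isg15, Irf7, Irf9, Usp18, Socs1 and Irgm1 were below 0, and so was the median over all genes at -0.25. In the deposited values the 653 genes had 0.45, 0.39 and -0.38, and after quantile normalization 0.49, 0.43 and -0.38. The share of probes well above background differed most between the arrays of date 3, at 57.0% with IFN epsilon and 50.03% with IFN beta, and its part in the date 3 differences was not tested.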

How the data were processed

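Gene expression was measured on 24 Agilent single-colour arrays (Cy3, 3 slides of 8). The scanner files hold a processed intensity per spot. Per the file headers, it was made with Agilent Feature Extraction 11.0.1.1, which subtracts background on each array. The authors also deposited log2 values per probe, used as an alternative. Tools in the submitters' processing notes include R 3.6.1 and, separately, limma 3.42.0. Every column of the deposited values had the same lowest (-1.57) and highest value (18.5), with medians from 5.52 to 5.54, and correlated with log2 of its own array's intensity at 0.989 or more. Their background treatment and any constant subtracted from them stay unknown. The number of arrays limits the precision.

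Levels were log2 processed intensity less the array's own 75th percentile, leaving out control spots and spots marked as outliers. Through RefSeq accessions (GRCm38.p6, names only) 32994 of 56605 probes were named, for 22911 genes, and unnamed probes were not examined. Probes had to be well above background in 2 or more samples of some group, and the brightest stood for its gene. The 2 arrays of each untreated sample were averaged, and 2 arrays that the submitters excluded entered no main test. All 7 groups (19 samples) were fitted with limma 3.58.1 in R 4.3.3 with the replicate number as a block (10 residual degrees of freedom). The pairing comes from the design text, which gives each replicate its own date. Deviations of IFN epsilon and IFN beta samples with the same number correlated at 0.63, 0.12 and 0.46. The highest correlations with another number were -0.019, 0.24 and -0.076, so for date 2 another number correlated more closely. Calls used a Benjamini-Hochberg adjusted p under 0.05. The fit was tested on simulated data.

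Genes named were those called, the 6 highest and 6 lowest moderated t and the highest and lowest member of each list among genes detected in all 6 samples, a panel of interferon-induced and receptor genes, and the 8 with the largest mean response, and 1 panel gene is not reported here. The members, lists and rule were chosen with earlier results of these data known. Alternatives were other scalings, filters, blocks, probe rules, sample sets and leaving out samples. The planned normexp correction used the median signal of each spot, because no mean signal column was used here. Ifit3 and Ifit3b are near-identical, and members of the H2, Gbp and Ly6 families are similar in sequence, so single members are uncertain. Of 13 named genes with several probes well above background in all 6 samples, 12 had the same sign in each. The exception was Ifnar1, with -0.13 in the probe used and 0.016 in another. Dimmer probes of Mitf, Spred2, Il33 and H2-K1 had the opposite sign, as did probes of Ak4 and Gm5458 well above background in 1 and 0 of 6 samples. Plots used matplotlib 3.10.9 under Python 3.11.15 (with numpy 2.4.6 and pandas 2.3.3). R also used statmod 1.5.0.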

Additional observations from a re-analysis of the deposited data

Results flagged for a closer look

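The arrays of 10 and 100 IU/ml IFN beta on date 3, which the submitters excluded and which entered only the alternative with all 24 arrays, carried an interferon signal. The median of the 653 responding genes was 0.988 (log2) above untreated cells of the same date at 10 IU/ml and 1.29 at 100 IU/ml. At the same doses IFN beta gave 0.041 and 0.16 on date 1 and 0.066 and 0.11 on date 2, and IFN epsilon on date 3 gave 0.28 and 0.73. The kept 1000 IU/ml IFN beta sample of date 3 gave 1.35, against 0.46 on date 1 and 0.73 on date 2. The cause was not tested.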

How the results depend on the processing

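The count of genes that differed was 0, and 0 also without the replicate block (179 genes at an unadjusted limma p under 0.05, against 854 with it), with only these 6 samples (471), all 24 arrays (780), no filter (882), a slide block (1367) or the mean of probes (841). It was 1, Angptl8, with normexp and quantile normalization, quantile normalization or the deposited values. It was also 1, but Carf, with a stricter filter or a random slide block. It was 18 with median scaling, which moved the median of all genes to -0.25. Leaving out a date or a sample gave 0 to 58. Changes with dose gave 6 genes at each lower dose with median scaling, and 0 to 19 (against 10 IU/ml) and 0 to 62 (against 100 IU/ml) when a date or sample was left out. The genes responding to the mean of both interferons at 1000 IU/ml numbered 1265, against 336 without the block (325 higher, 11 lower), 350 with median scaling (317 higher, 33 lower), 688 with no filter and 142 to 1373 with a date or sample left out. In all, 73 values reversed, 47 counts and list medians moved, 15 passed the threshold anew, and 1878 kept direction and side of the threshold or stayed within the spread between dates.

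Some named genes, none of which passed the threshold, changed sign, including Il33 and Spred2, which had -0.29 and -0.28 as reported. Without the block H2-K1 had 0.017. Median scaling gave Irgm1 -0.048, Cdkn1b -0.11, Mvd -0.19, Siglech -0.12, Rpl13a -0.0052, Isg15 -0.12, Irf7 -0.010, Irf9 -0.17, Usp18 -0.0099, Socs1 -0.16. Normexp and quantile normalization gave Eif2ak2 0.0064, Ifngr1 0.017, Calr 0.083, Pecam1 -0.032, Ifnar2 0.0050, quantile normalization Ifnar2 0.015 and the deposited values Eif2ak2 0.0065, Ifngr1 0.017, Calr 0.083, Pecam1 -0.065, Ifnar2 0.0048. A slide block gave Mvd -0.060, H2-K1 0.047, B2m 0.039, a random slide block Mvd -0.017, B2m 0.013 and the mean of probes Spred2 0.030, Il33 0.20, H2-K1 0.41. Leaving out a date or sample gave, as ranges, B2m -0.10 to 0.14, Cd274 -0.58 to 1.13, Cdkn1b -0.0088 to 0.22, Cldn3 -0.49 to 0.071, Cxcl10 -0.00090 to 0.61, Eif2ak2 -0.21 to 0.13, Epcam -0.53 to 1.36, H2-K1 -0.57 to 0.26, Ifit1 -0.070 to 0.60, Ifnar2 -0.098 to 0.090, Irf9 -0.058 to 0.19, Isg15 -0.018 to 0.26, Mvd -0.075 to 0.18, Oas2 -0.0027 to 0.77, Pecam1 -0.12 to 0.71, Rpl13a -0.020 to 0.35, Rsad2 -0.20 to 1.27, Siglech -0.13 to 0.31, Socs1 -0.54 to 0.74, Tap1 -0.031 to 0.81, Tlr3 -0.21 to 0.74, Tlr9 -0.42 to 0.17, Trafd1 -0.011 to 0.73. The causes were not tested.

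With 3 samples per interferon and wide IFN beta values, differences under about 0.42 were mostly within the interval of a responding gene.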

Other observations

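The sign of the difference between the interferons on date 3 was the same at all doses. For the 53 antiviral effectors, IFN epsilon minus IFN beta had a median of -1.53 at 10 IU/ml, -0.75 at 100 IU/ml and -0.52 at 1000 IU/ml on date 3. On date 1 it was 0.81, 1.09 and 0.67, and on date 2 1.26, 1.53 and 0.54. At the lower doses on date 3 the IFN beta arrays are those that the submitters excluded.

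The untreated samples of date 3 had the highest levels of Isg15, Ifit1, Irf7 and Usp18 among untreated cells. Usp18 was at 0.20 there, against -0.45 on date 1 and -1.08 on date 2. Tap1 was lowest there, at -0.64, against -0.53 on date 1 and -0.44 on date 2.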
